A study of Mus musculus with 15 samples.

Results

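The 8 genes described here belong to major histocompatibility complex (MHC) class II presentation, and were followed in macrophages exposed to microrods or to polarizing cytokines. They are H2-Aa, H2-Ab1 and H2-Eb1, which encode chains of the molecules that display peptides, H2-DMa, H2-DMb1 and H2-DMb2, which encode the chains of the peptide editor H2-DM, Cd74, which encodes the invariant chain, and Ciita, which encodes the class II transactivator. The members were taken by symbol, as the rows of a gene count table whose Ensembl identifiers map to these names, and 8 of 8 were found among 78317 identifiers (H2-Aa, ENSMUSG00000036594, H2-Ab1, ENSMUSG00000073421, H2-Eb1, ENSMUSG00000060586, H2-DMa, ENSMUSG00000037649, H2-DMb1, ENSMUSG00000079547, H2-DMb2, ENSMUSG00000037548, Cd74, ENSMUSG00000024610, and Ciita, ENSMUSG00000022504). RNA sequencing gave 15 libraries in 5 groups of 3, all from MH-S cells, a line of SV40-transformed mouse alveolar macrophages, after 24 h of incubation. M0 cells received medium only, M1 cells received lipopolysaccharide (LPS) at 1 µg/mL with interferon-γ (IFN-γ) at 20 ng/mL, and M2 cells received interleukin-4 (IL-4) at 20 ng/mL. CaP cells received calcium phosphate microrods and SiO2 cells received silica microrods, both built with alginate, protamine and carboxymethyl chitosan and both given at 0.1 mg/mL. All groups share 1 transformed cell line grown in serum-containing medium. The rods of each material came from 3 separately made batches, but each batch met cells of the same passage in its own well. The rod libraries therefore differ in batch and well and not in passage. Nothing says that the M0, M1 and M2 libraries came from separate cultures. All p-values thus measure only the spread between these libraries, which may be technical. The comparisons with M1 and M2 place the microrod groups beside known activation states, and the comparisons with M0 ask what the rods change.

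MHC class II molecules are pairs of an α and a β chain that carry peptides from endosomes to the cell surface, where CD4+ T cells read them. The invariant chain Cd74 holds new pairs and leads them to endosomes, cathepsins cut it down to a short stub in the groove, and H2-DM, a pair of H2-DMa with H2-DMb1 or H2-DMb2, removes the stub and selects peptides. Transcription of these genes depends on Ciita, which is recruited by factors bound to the X and Y boxes of their promoters. In macrophages IFN-γ is the classical inducer of Ciita, and IL-4 is known to raise class II in B cells and in several macrophage types.

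Promoter sequences, searched for the letters of the X and Y boxes, are given here for a peptide-display α chain, a peptide-display β chain and the H2-DM chains, since these sets differed in their levels. RefSeq promoter windows, which run from 250 bases before to 50 bases after a gene's start on GRCm38.p6, were at hand for 5 of the 8 members. Each line holds the 150 bases before the start on the gene's own strand, with matches in capitals to the X box core AGNNACNGA, the X2 box core TGACGT and the Y box core ATTGG, searched on both strands.
H2-Aa, chr17:34287824-34287973, minus strand: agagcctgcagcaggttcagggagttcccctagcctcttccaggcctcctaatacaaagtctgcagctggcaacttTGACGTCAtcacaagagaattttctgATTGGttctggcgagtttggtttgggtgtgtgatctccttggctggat
H2-Eb1, chr17:34305717-34305866, plus strand: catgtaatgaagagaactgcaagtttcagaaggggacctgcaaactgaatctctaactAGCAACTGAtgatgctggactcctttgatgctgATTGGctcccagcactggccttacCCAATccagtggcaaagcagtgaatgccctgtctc
H2-DMb1, chr17:34153041-34153190, plus strand: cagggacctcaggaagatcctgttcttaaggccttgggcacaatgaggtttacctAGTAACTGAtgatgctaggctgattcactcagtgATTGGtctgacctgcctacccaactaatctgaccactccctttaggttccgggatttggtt
H2-DMb2, chr17:34145099-34145248, plus strand: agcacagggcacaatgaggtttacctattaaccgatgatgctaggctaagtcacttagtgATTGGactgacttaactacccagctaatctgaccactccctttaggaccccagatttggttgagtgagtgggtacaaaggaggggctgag
H2-DMa, chr17:34122682-34122831, plus strand: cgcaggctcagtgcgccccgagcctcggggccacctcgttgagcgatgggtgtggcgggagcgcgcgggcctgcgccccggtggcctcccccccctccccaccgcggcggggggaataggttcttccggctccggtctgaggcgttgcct

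Counting the base before the start as -1, H2-Eb1 held an X box core at -92 and Y box cores at -59 and, on the opposite strand, at -35. H2-DMb1 held an X box core at -95 and a Y box core at -61, with a further X box core on the opposite strand at -163, outside the printed stretch. H2-Aa held X2 box cores on both strands at -74 and -72, which overlap, and a Y box core at -48. H2-DMb2 held a Y box core at -90 and no X box core of these letters, and the printed one of 2 H2-DMa windows held none of the motifs, while the other held a Y box core at -198. The IFN-γ-activated motif TTCNNNGAA was found in 1 of the 5 genes, in H2-DMb2 at -218, and the interferon-response core GAAANNGAA in none. Such short motifs are common: of 32851 promoter windows, 17.7% held the X box core, 37.4% the Y box core, 6.54% both, 7.51% the X2 box core, 8.3% the IFN-γ-activated motif and 8.56% the interferon-response core. The matches are a description of the letters and not of bound sites.

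The libraries held between 8459643 and 68750050 counts. Levels are given as CPM, the read count relative to the library's TMM-scaled total, and a gene was called when edgeR's quasi-likelihood test gave a Benjamini-Hochberg adjusted p below 0.05 over all genes tested with a log2 fold change beyond 0.5 in either direction. The stimuli acted on their usual marker genes: Il1b lay between 359 and 450 CPM in the M1 libraries against at most 1.27 CPM in M0, with Il6 and Nos2 also higher, and Arg1 lay between 1380 and 1720 CPM in M2 against at most 14.7 CPM in M0, with Ccl24 and Clec10a also higher. The summed level of 8 macrophage markers ranged from 1430 to 3660 CPM, whereas that of 7 alveolar macrophage markers ranged from 3.57 to 35.1 CPM. Of these 7, Marco, Mrc1, Itgax and Fabp4 passed the filter on low counts, while Siglecf reached at most 0.478 CPM and Car4 at most 0.086 CPM. M2 replicate 2 had the lowest mean correlation with its own group, 0.9043, and calls of the members and of named pathway genes that changed without it are given. Of the 8 members, H2-DMa, H2-DMb1, H2-DMb2 and Cd74 passed the filter on low counts and were tested, and H2-Aa, H2-Ab1, H2-Eb1 and Ciita did not pass.

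The chains that display peptides were nearly absent from these macrophages, in every group. H2-Aa, the α chain of the A molecule, had 0 counts in the 3 M0 libraries, 0, 1 and 0 in M1, 2, 1 and 4 in M2, 1, 0 and 0 in CaP and 1, 1 and 0 in SiO2. H2-Ab1, its β chain, had 1, 0 and 1 counts in M0, 0, 1 and 1 in M1, 0, 2 and 11 in M2, 0, 1 and 1 in CaP and 0 in each SiO2 library. H2-Eb1, the β chain of the E molecule, had 0 counts in each M0, M1 and SiO2 library, 2, 1 and 6 in M2, and 2, 2 and 0 in CaP. M2 was thus the group with the most reads of each chain, but at pooled levels of 0.076 CPM for H2-Aa, 0.141 CPM for H2-Ab1 and 0.0977 CPM for H2-Eb1, and its highest counts were all in replicate 3, the deepest library. A count of 0 over the 3 M0 libraries still allows up to 0.0484 CPM (3 counts over the group, for counting error only). When all genes with any count were kept in the model, none of the 3 chains was called between M2 and M0 by edgeR (adjusted p = 0.416 for H2-Aa, 0.656 for H2-Ab1 and 0.268 for H2-Eb1; unadjusted p = 0.0274, 0.073 and 0.0133), where 2.17% of the 52647 genes were called. Class II chains differ between mouse strains, and how well the reads of this line's alleles align to the reference genome was not tested.

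Ciita, the transactivator, was detected mainly in M2. Its counts were 0 in each M0 and SiO2 library, 3, 0 and 0 in M1, 8, 1 and 19 in M2, and 1, 0 and 0 in CaP. All M2 libraries held at least 1 count, and M1, which received IFN-γ, held counts in 1 of 3 libraries. Pooled over the group, M2 stood at 0.304 CPM, which is at least 6.28-fold higher than the 3-count limit of M0. This bound fell to 2.43-fold without M0 replicate 1, the deepest M0 library, and was 8.36-fold without M2 replicate 3, which gave 19 of the 28 counts. With all genes kept, Ciita was called in M2 against M0 (adjusted p = 0.00259 by edgeR), but not without M0 replicate 1 (0.154), M2 replicate 1 (0.0725) or M2 replicate 3 (0.0631). The same model gave adjusted p = 0.338 (unadjusted p = 0.0455) for M1 against M0, where 6.45% of the genes were called. Between M1 and M2 Ciita was not called either (adjusted p = 0.26 by edgeR, unadjusted p = 0.0382), where 4407 of the 52647 genes were. Against M2, Ciita was called lower in CaP (adjusted p = 0.000835 by edgeR) and in SiO2 (0.00389). These comparisons called 946 and 738 of the 52647 genes. The CaP call was kept when any single library was left out (adjusted p up to 0.0426). The SiO2 call was lost without M2 replicate 1 (0.0819), M2 replicate 3 (0.0752), SiO2 replicate 1 (0.0528) or SiO2 replicate 3 (0.0894). The M1 libraries were shallow for this gene, with a 3-count limit of 0.0821 CPM over the group.

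**Figure D1:**
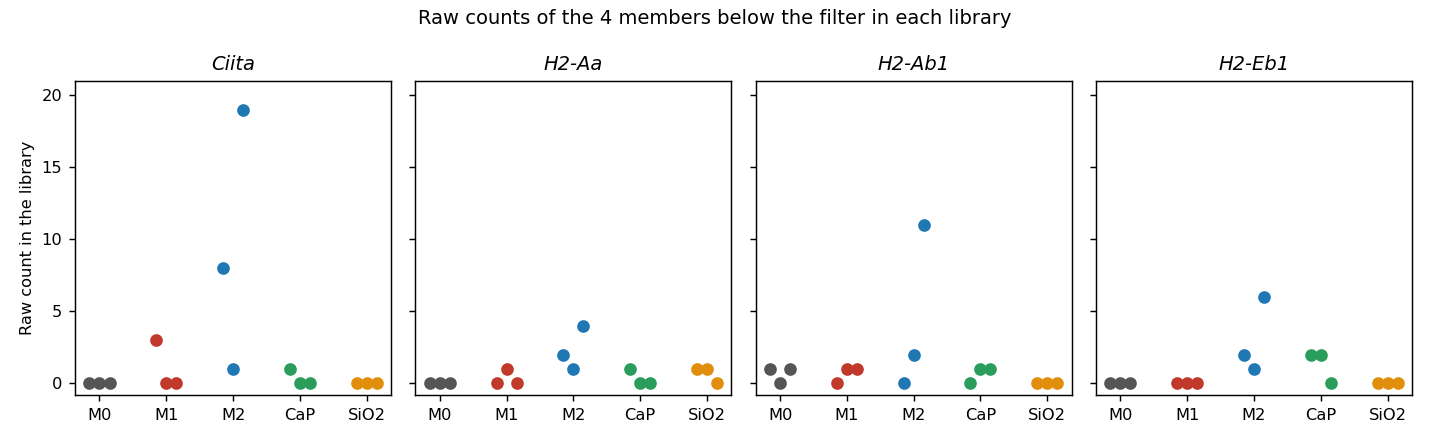
Raw counts (vertical axis) of Ciita, H2-Aa, H2-Ab1 and H2-Eb1 in each library, with the 5 groups on the horizontal axis and 1 point per library in the order of replicates 1 to 3. The counts are not scaled for depth; the highest points, 19 counts of Ciita and 11 of H2-Ab1, belong to M2 replicate 3, the deepest library.

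H2-DMa, the α chain of the peptide editor, showed the widest fold difference between groups among the 4 tested members. Its levels were 2.79, 2.99 and 3.01 CPM in M0, 1.81, 1.09 and 2.04 CPM in M1, 39.8, 35.4 and 27.6 CPM in M2, 2.26, 1.97 and 2.87 CPM in CaP and 2.69, 3.71 and 2.34 CPM in SiO2. Every M2 library lay above every other library, and the M1 libraries lay below all those of M0, though edgeR did not call M1 against M0. The share of all genes whose libraries separate in such ways was not counted, here or for the members below. The raw counts behind these levels ran from 16 to 21 in M1 and from 269 to 1929 in M2.

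H2-DMb1, a β chain of the same editor, was expressed in all groups. Its levels were 30.5, 47.5 and 41.7 CPM in M0, 37.8, 47.9 and 49 CPM in M1, 81.5, 81.5 and 69.1 CPM in M2, 41.7, 48.8 and 45.1 CPM in CaP and 47.5, 47.4 and 44.5 CPM in SiO2. The M2 libraries lay above all others here too, with overlap among the remaining groups. H2-DMb2, the product of the neighbouring and closely related gene, had levels of 11.6, 15 and 8.22 CPM in M0, 9.46, 12.9 and 14.5 CPM in M1, 32.8, 27.6 and 31.1 CPM in M2, 16.1, 14.1 and 15.2 CPM in CaP and 15.9, 12.8 and 14.1 CPM in SiO2. The M2 libraries were again above all others, and the remaining groups overlapped. The transcripts of the pair share 254 of the 1330 windows of 75 bases (the read length) in H2-DMb1, or 19.1%, and 14.6% of those in H2-DMb2, so part of their reads can be assigned to either gene.

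Cd74, the invariant chain, was by far the most abundant member. Its levels were 495, 496 and 727 CPM in M0, 817, 852 and 826 CPM in M1, 2620, 1910 and 2580 CPM in M2, 302, 787 and 784 CPM in CaP and 735, 659 and 664 CPM in SiO2. The M2 libraries did not overlap with any other, and CaP replicate 1 was the lowest of all 15. The M1 libraries lay above all M0 libraries, but without a call. On a scale per kilobase of transcript, which allows comparison between genes, mean Cd74 in M0 was 426 CPM per kb, against 28.4 for H2-DMb1, 8.14 for H2-DMb2 and 1.77 for H2-DMa. In M2 the means were 1760 CPM per kb for Cd74, 55.1 for H2-DMb1, 21.4 for H2-DMb2 and 20.7 for H2-DMa, compared with 0.133 for H2-Ab1, 0.111 for H2-Aa, 0.0747 for Ciita and 0.0707 for H2-Eb1.

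**Figure D2:**
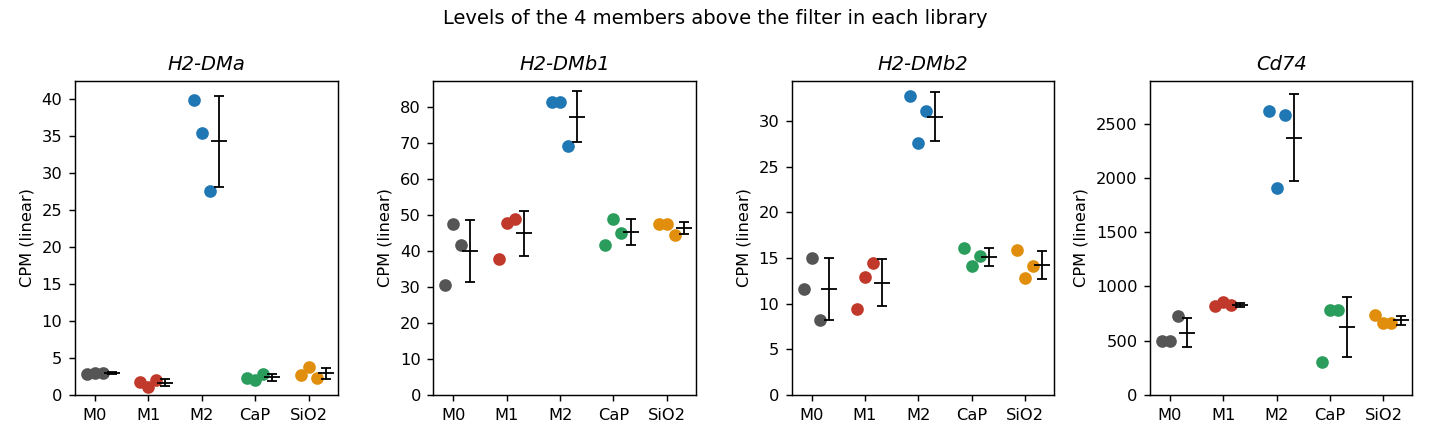
Levels in CPM (vertical axes, linear, from 0) of H2-DMa, H2-DMb1, H2-DMb2 and Cd74 in each library of the 5 groups, with the mean ± SD (n = 3) of each group as a bar to the right of its points. The M2 libraries lie above all others in each panel, and CaP replicate 1 is low for Cd74 at 302 CPM.

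In M2 cells, all 4 tested members rose over M0. H2-DMa rose most, from 2.93 ± 0.121 to 34.3 ± 6.17 CPM (SD, n = 3), which is 11.7-fold with a log2 fold change of 3.55 ± 0.25 (SE, adjusted p = 1.63e-06 by edgeR). Cd74 rose from 573 ± 134 to 2370 ± 399 CPM, 4.14-fold (log2 fold change 2.05 ± 0.3, adjusted p = 0.00118 by edgeR). H2-DMb2 rose from 11.6 ± 3.37 to 30.5 ± 2.64 CPM, 2.61-fold (log2 fold change 1.38 ± 0.21, adjusted p = 0.00201 by edgeR), and H2-DMb1 from 39.9 ± 8.63 to 77.4 ± 7.13 CPM, 1.94-fold (log2 fold change 0.96 ± 0.18, adjusted p = 0.00668 by edgeR). Of the 16654 genes tested, 4.13% were called between M2 and M0, 2% as higher and 2.13% as lower, and the median log2 fold change was 0.068 over all genes and 1.71 over the 4 members. In bulk RNA, more cells with a transcript and more transcript per cell cannot be told apart.

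The M2 calls did not rest on 1 library: each of the 4 members was called over M0 when any single library was left out, M2 replicate 2 included. They did depend on how the spread was estimated, since with only the 6 M0 and M2 libraries in the model H2-DMa (adjusted p = 0.0029) and Cd74 (0.0238) were called and H2-DMb2 (0.0975) and H2-DMb1 (0.178) were not. Marker lists of macrophages also differed in M2, and their part in these results was not tested. The macrophage list (8 genes) summed to 1430 to 2210 CPM in M2 against 2720 to 3660 CPM in M0, and the alveolar macrophage list (7 genes) to 29.6 to 35.1 against 4.75 to 6.14 CPM. Of 7 tested genes of the macrophage list, Adgre1 and Lyz2 were called, 1 higher and 1 lower. In the alveolar list only Mrc1 was called, as higher, among 4 tested. Over all genes 4.13% were called. The dendritic cell list (6 genes) summed to 14.8 to 45.1 CPM in M2 against 17.7 to 22.8 CPM in M0, mostly from Cd209a, and the B cell list (5 genes) to 1.13 to 1.71 against 0.463 to 1.08 CPM, mostly from Cd79b, with 2 counts of Ms4a1 and none of Pax5 over the 3 M2 libraries. The T cell list (4 genes) reached at most 0.114 CPM and the epithelial list (5 genes) at most 0.205 CPM in M2.

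In M1 cells none of the 4 tested members was called against M0 by edgeR, where 14.1% of all genes were called. H2-DMa was lower in all 3 M1 libraries, at 1.65 ± 0.493 CPM, with a log2 fold change of -0.85 (95% interval -1.44 to -0.26) and an adjusted p of 0.076 by edgeR (unadjusted p = 0.0135, the only member under 0.05, beside 4609 of all 16654 genes). DESeq2 called it (adjusted p = 0.038), along with 16.8% of all genes. EdgeR called it without M2 replicate 2 (adjusted p = 0.0448), along with 3128 of 17128 genes. With only genes that reached 10 counts in every library edgeR called it too (0.0471), along with 1773 of 12332 genes. Over all alternatives the adjusted p of H2-DMa ran from 0.038 to 0.309. Cd74 was higher in all 3 M1 libraries, at 832 ± 18.4 CPM, with a log2 fold change of 0.54 (95% interval -0.02 to 1.1, adjusted p = 0.244 by edgeR). H2-DMb1 (log2 fold change 0.18, 95% interval -0.17 to 0.52) and H2-DMb2 (0.06, -0.36 to 0.49) overlapped with M0. In M1 the B cell list summed to 9.04 to 14.5 CPM, nearly all from Cd79b, with no counts of Ms4a1, and the dendritic cell list to 4.13 to 4.92 CPM. The macrophage list summed to 3300 to 3410 CPM and the alveolar macrophage list to 5.59 to 7.58 CPM. Of 7 tested macrophage genes 2 were called higher and 1 lower than in M0, and of 4 tested alveolar genes 2 were called higher. The part of these lists in the members' values was not tested.

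Set directly against M2, all 4 tested members were lower in M1, a comparison in which 16.1% of all genes were called. H2-DMa was 21.1-fold lower (log2 fold change -4.4 ± 0.28, adjusted p = 9.5e-08 by edgeR) and Cd74 2.85-fold lower (-1.51 ± 0.29, adjusted p = 0.00267). H2-DMb2 was 2.5-fold lower (log2 fold change -1.32 ± 0.22, adjusted p = 0.000767 by edgeR) and H2-DMb1 1.72-fold lower (-0.78 ± 0.18, adjusted p = 0.0073). By group means, the 2 polarized states stood at the ends of the order for H2-DMa, with M2 highest and M1 lowest. For Cd74 they took the first and second places. For neither gene was M1 called against M0, CaP or SiO2 by edgeR.

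**Figure D3:**
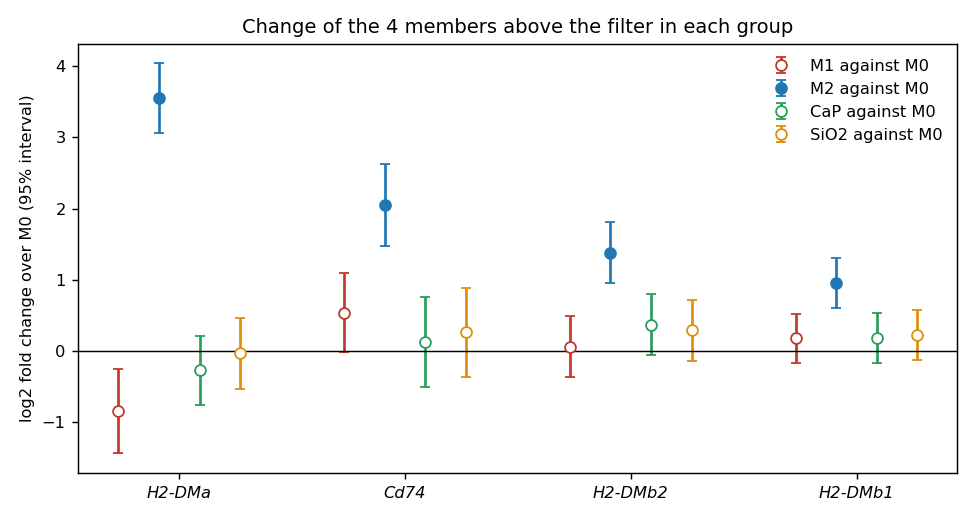
Log2 fold change over M0 (vertical axis) of the 4 tested members in M1, M2, CaP and SiO2 cells, with 95% intervals. Filled points passed both thresholds; these are the 4 of M2, from 0.96 for H2-DMb1 to 3.55 for H2-DMa, and all other points are open.

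None of the 4 tested members was detectably changed by the microrods. In data simulated for CaP against M0, edgeR called 7% of 2-fold and 64% of 4-fold changes. The changed genes were drawn at random from all tested genes, so most 2-fold changes of such genes would be missed. These shares were not computed for the members, whose own intervals are given below. After CaP exposure none of the 4 tested members was called against M0 by edgeR or by DESeq2, and none had an unadjusted p below 0.05. Of the 16621 genes tested in the microrod model, 0.409% were called by edgeR and 3.9% by DESeq2, and 2985 genes had an unadjusted p below 0.05 by edgeR. The log2 fold changes were 0.37 for H2-DMb2 (95% interval -0.05 to 0.8), 0.18 for H2-DMb1 (-0.17 to 0.54), 0.12 for Cd74 (-0.51 to 0.76) and -0.27 for H2-DMa (-0.76 to 0.21). The Cd74 value depended on CaP replicate 1: without it the log2 fold change was 0.43 (adjusted p = 0.177 by edgeR), still not called.

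After SiO2 exposure the members were likewise not called by edgeR or DESeq2, with no unadjusted p below 0.05, where 0.0602% of all genes were called by edgeR and 0.776% by DESeq2. Of the 16621 genes tested, 1540 had an unadjusted p below 0.05 by edgeR in this comparison, and 310 between the materials. Relative to M0 the log2 fold change was 0.29 for H2-DMb2 (95% interval -0.14 to 0.72), 0.26 for Cd74 (-0.37 to 0.89), 0.22 for H2-DMb1 (-0.13 to 0.58) and -0.03 for H2-DMa (-0.53 to 0.47). Between the materials, where 0.0241% of all genes were called by edgeR and 0.0963% by DESeq2, the log2 fold changes of CaP over SiO2 were -0.25 for H2-DMa (-0.73 to 0.24), -0.14 for Cd74 (-0.77 to 0.49), 0.09 for H2-DMb2 (-0.34 to 0.51) and -0.04 for H2-DMb1 (-0.39 to 0.31). None of the 4 was called between the materials by either tool and none had an unadjusted p below 0.05, but the intervals still allow differences of the size of the thresholds for H2-DMa, Cd74 and H2-DMb2.

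Against M2, all 4 tested members were lower in both microrod groups, in comparisons with 4.46% (CaP) and 3.65% (SiO2) of all genes called. H2-DMa was 14.2-fold lower in CaP (log2 fold change -3.82 ± 0.24, adjusted p = 3.56e-07 by edgeR) and 11.9-fold lower in SiO2 (-3.58 ± 0.25, adjusted p = 1.03e-06). Cd74 was 3.8-fold lower in CaP (-1.92 ± 0.3, adjusted p = 0.0012 by edgeR) and 3.45-fold lower in SiO2 (-1.79 ± 0.29, adjusted p = 0.00242). H2-DMb2 was 2.02-fold lower in CaP (-1.01 ± 0.21, adjusted p = 0.0109 by edgeR) and 2.14-fold lower in SiO2 (-1.1 ± 0.21, adjusted p = 0.00779). H2-DMb1 was 1.71-fold lower in CaP (-0.77 ± 0.17, adjusted p = 0.0189 by edgeR) and 1.66-fold lower in SiO2 (-0.73 ± 0.17, adjusted p = 0.0302).

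Some of these smaller differences lost their call when a library was left out, with the direction kept. For CaP against M2, H2-DMb1 was lost without M2 replicate 1 (adjusted p = 0.0716), CaP replicate 1 (0.0584) or CaP replicate 3 (0.0726), and H2-DMb2 without CaP replicate 2 (0.0525). For SiO2 against M2, H2-DMb1 was lost without M2 replicate 1 (0.118), M2 replicate 2 (0.0603), CaP replicate 3 (0.0518) or any of SiO2 replicates 1 to 3 (0.108, 0.106 and 0.144). Against M1, none of the 4 members was called in CaP or in SiO2 by edgeR or DESeq2, where edgeR called 12.7% and 10.5% of all genes and DESeq2 14.5% and 12.2%. Of the unadjusted p-values 0 of 4 and 1 of 4 were below 0.05, beside 4413 and 3629 of all 16654 genes. The member with the largest difference was H2-DMa, higher in SiO2 than in M1 in all libraries (log2 fold change 0.82, 95% interval 0.24 to 1.41, adjusted p = 0.106 by edgeR, unadjusted p = 0.0158).

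The groups therefore took different orders for the single members below M2. For H2-DMa the means ran from M2 (34.3 CPM) through M0 (2.93), SiO2 (2.91) and CaP (2.36) to M1 (1.65), for H2-DMb1 from M2 (77.4) through SiO2 (46.5), CaP (45.2) and M1 (44.9) to M0 (39.9), and for H2-DMb2 from M2 (30.5) through CaP (15.1), SiO2 (14.3) and M1 (12.3) to M0 (11.6). For Cd74 they ran from M2 (2370) through M1 (832), SiO2 (686) and CaP (625) to M0 (573). In all of them the step below M2 was called, and no later step between neighbours was.

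The balance of the H2-DM chains shifted with these changes. Taken per kilobase, the ratio of H2-DMa to the sum of H2-DMb1 and H2-DMb2 was 0.0564, 0.0407 and 0.0512 in M0, 0.0324, 0.0153 and 0.0273 in M1 and 0.296, 0.276 and 0.234 in M2. It was 0.0332, 0.0266 and 0.0404 in CaP and 0.0361, 0.0523 and 0.0339 in SiO2. The M2 ratios were above those of all other libraries and the M1 ratios below those of M0, although with 3 libraries a group an exact permutation test cannot go below p = 0.1. The ratio of Cd74 to H2-DMb1 per kilobase was 10.9 to 18.2 in M0, 17.6 to 22.5 in M1, 24.5 to 38.9 in M2, 7.56 to 18.2 in CaP and 14.5 to 16.2 in SiO2. H2-DMb2 held 22.7 ± 5.62% of the counts of the H2-DMb pair in M0 and 28.3 ± 2.87% in M2 (SD, n = 3), with overlapping libraries. Together the 8 members took 0.0626 ± 0.0149% of all counts in M0, 0.0881 ± 0.00389% in M1, 0.246 ± 0.0558% in M2, 0.0712 ± 0.0315% in CaP and 0.0765 ± 0.00395% in SiO2.

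**Figure D4:**
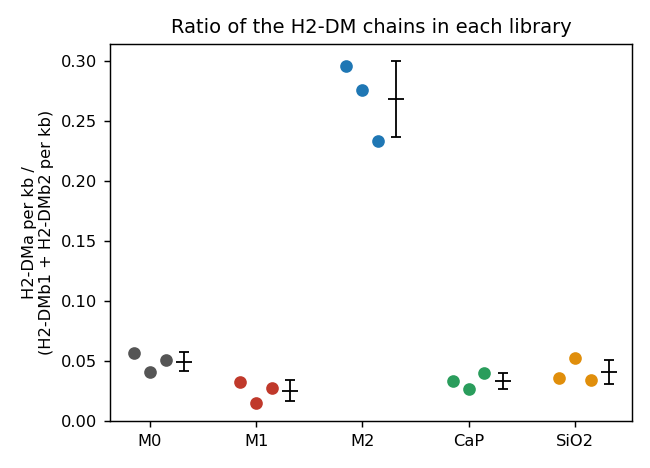
Ratio of H2-DMa to the sum of H2-DMb1 and H2-DMb2 (vertical axis, levels per kilobase, no unit, from 0) in each library of the 5 groups, with the mean ± SD (n = 3) to the right of the points. The M2 libraries lie at 0.234 to 0.296, and all other libraries at or below 0.0564.

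The other class II genes were low, too. H2-Oa and H2-Ob encode H2-DO, which restrains H2-DM, and passed the filter, whereas H2-Ea (1 count in CaP, 0 elsewhere) and H2-Eb2 (4 counts over M2, 2 over CaP, 0 elsewhere) did not. H2-Oa had a mean of 2.75 ± 0.967 CPM in M0, 0.937 ± 0.615 CPM in M1 and 4.2 ± 0.866 CPM in M2. It was not called in M1 against M0 by edgeR (log2 fold change -1.46, adjusted p = 0.0591) but was by DESeq2 (0.0104), along with 16.8% of all genes. EdgeR called H2-Oa there without M0 replicate 1 or M2 replicate 2, along with 1749 of 17050 and 3128 of 17128 genes. H2-Oa was lower in M1 than in M2 (log2 fold change -2.1 ± 0.46, adjusted p = 0.00608 by edgeR). H2-Ob lay between 0.369 and 0.463 CPM in M0 and between 0.372 and 1.45 CPM in M2, without a call.

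The factors that bind the X and Y boxes (Rfx5, Rfxap, Rfxank, Nfya, Nfyb, Nfyc and Creb1) were all tested, and 0 of 7 were called by edgeR or DESeq2 in M1 or in M2 against M0, with 0 of 7 at an unadjusted p below 0.05 in both. Over all 16654 genes, edgeR called 14.1% in M1 and 4.13% in M2, and DESeq2 16.8% and 5.97%. An unadjusted p below 0.05 was found for 4609 genes in M1 and 2862 in M2. The median log2 fold change over the 7 was 0.13 in M1 and -0.05 in M2, beside -0.006 and 0.068 over all genes. Of the 4 genes of IL-4 signalling (the receptor chains Il4ra and Il2rg, the kinase Jak3 and the factor Stat6), 0 were called in M1 or M2 against M0 by edgeR or DESeq2, with 1 and 0 at an unadjusted p below 0.05.

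Among 8 genes that link IFN-γ to Ciita, 2 rose and 2 fell in M1 against M0, in a comparison with 9.7% of all genes called higher and 4.37% lower. Socs1, an inhibitor of JAK kinases, rose from 0.451 ± 0.0766 to 6.78 ± 4.6 CPM (log2 fold change 3.97 ± 0.98, adjusted p = 0.0152 by edgeR). Jak2, a kinase of the IFN-γ receptor, rose (log2 fold change 1.63 ± 0.49, adjusted p = 0.0418). Ifngr1, the ligand-binding chain of the receptor, fell from between 99.5 and 122 CPM in M0 to between 54.2 and 58.3 CPM in M1 (log2 fold change -1.03 ± 0.18, adjusted p = 0.00197 by edgeR), and Irf1, a factor that acts on Ciita, also fell (-0.77 ± 0.21, adjusted p = 0.029). The call of Ifngr1 was kept when any single library was left out. The others were lost in part: Socs1 without M0 replicate 1 or M1 replicate 3 (adjusted p up to 0.0905), Irf1 without M0 replicate 2 or 3 or any M1 library (up to 0.0956), and Jak2 without any M0 or M1 library, CaP replicate 2 or any SiO2 library (up to 0.158).

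In M2 against M0, where 2% of all genes were called higher and 2.13% lower, 1 of the 8 genes was called. It was Socs1, at 75.5 ± 63.1 CPM (log2 fold change 7.47 ± 0.95, adjusted p = 0.000404 by edgeR). Its M2 libraries spread from 12.5 to 139 CPM, all above the 0.369 to 0.52 CPM of M0, and the call was kept when any single library was left out. Irf1 (log2 fold change 0.13, adjusted p = 0.801) was not called in M2 by edgeR.

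Some of the proteases and helpers that process antigen and invariant chain in endosomes were called, in both directions. Of 11 such genes, 2 rose and 1 fell in M1 against M0, where 9.7% of all genes were called higher and 4.37% lower. Ctsd, the aspartic protease cathepsin D, rose from 178 ± 53.6 to 459 ± 158 CPM (log2 fold change 1.37 ± 0.35, adjusted p = 0.0188 by edgeR), and Ctsc, the aminopeptidase cathepsin C, from 439 ± 67 to 676 ± 83.8 CPM (0.62 ± 0.18, adjusted p = 0.0374). Cst3, the cathepsin inhibitor cystatin C, fell from 1280.0 ± 74.7 to 596 ± 56.7 CPM (-1.11 ± 0.21, adjusted p = 0.00258 by edgeR), a call kept when any single library was left out. Ctsd was lost without M0 replicate 1, M1 replicate 2 or M1 replicate 3 (adjusted p up to 0.084), and Ctsc without M0 replicate 1 or 2, any M1 library, M2 replicate 1, CaP replicate 3 or SiO2 replicate 1 or 3 (up to 0.144).

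In M2 against M0, 1 of the 11 rose and 1 fell, where 2% of all genes were called higher and 2.13% lower. Ctsh, the aminopeptidase cathepsin H, rose from 65.2 ± 10.6 to 155 ± 19.3 CPM (log2 fold change 1.25 ± 0.16, adjusted p = 0.000445 by edgeR), a call kept when any single library was left out. Ctsl, cathepsin L, fell from 290.0 ± 66.7 to 171 ± 20.3 CPM (-0.76 ± 0.19, adjusted p = 0.0366 by edgeR). The Ctsl call was lost without M0 replicate 2 or 3, M1 replicate 3, any M2 library, CaP replicate 2 or SiO2 replicate 1 or 3 (adjusted p up to 0.136). Ctss, cathepsin S, which trims the invariant chain in many antigen-presenting cells, lay between 564 and 824 CPM in M2 and between 551 and 684 CPM in M0, without a call. In M1 its libraries lay between 448 and 477 CPM, below all those of M0 (log2 fold change -0.44, adjusted p = 0.0646 by edgeR), and it was called there without M0 replicate 1 or M2 replicate 2. Irf2, an interferon regulatory factor of the IFN-γ list, was called in M1 against M0 without M2 replicate 2 or CaP replicate 1 (adjusted p = 0.0988 with all libraries), and Marchf8, a ligase related to Marchf1, in M2 against M0 without M2 replicate 2 (0.174 with all libraries). Ifi30, a thiol reductase of endosomes, was called in M2 against M0 without M0 replicate 2 (0.0867 with all libraries). Over all genes edgeR called 1749 of 17050 in M1 against M0 without M0 replicate 1. It called 3128 of 17128 there without M2 replicate 2 and 2782 of 17066 without CaP replicate 1. In M2 against M0 it called 1361 of 17128 without M2 replicate 2 and 657 of 17087 without M0 replicate 2.

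Genes that set the turnover of class II molecules or restrain them included large responses. Of 6, 5 passed the filter. Cd83, which keeps class II at the surface by opposing its ubiquitination, rose from 0.668 ± 0.154 CPM in M0 to 10.8 ± 1 CPM in M1 (log2 fold change 4.03 ± 0.26, adjusted p = 1.88e-07 by edgeR) and 10.6 ± 1.17 CPM in M2 (3.99 ± 0.26, adjusted p = 6.14e-07). Marchf1, the ligase that ubiquitinates class II, rose in M2 from 0.816 ± 0.195 to 2.37 ± 0.487 CPM (log2 fold change 1.53 ± 0.39, adjusted p = 0.042 by edgeR), a call lost without any M0 library, M1 replicate 1 or 3, M2 replicate 1 or 3, CaP replicate 3 or SiO2 replicate 1 or 3 (adjusted p up to 0.249). Il10, a cytokine that lowers class II at the surface of monocytes, rose in M1, from 2 counts over the 3 M0 libraries to 88 counts over the 3 M1 libraries (adjusted p = 7.61e-06 by edgeR). The calls of Cd83 and Il10 were kept when any single library was left out.

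**Figure D5:**
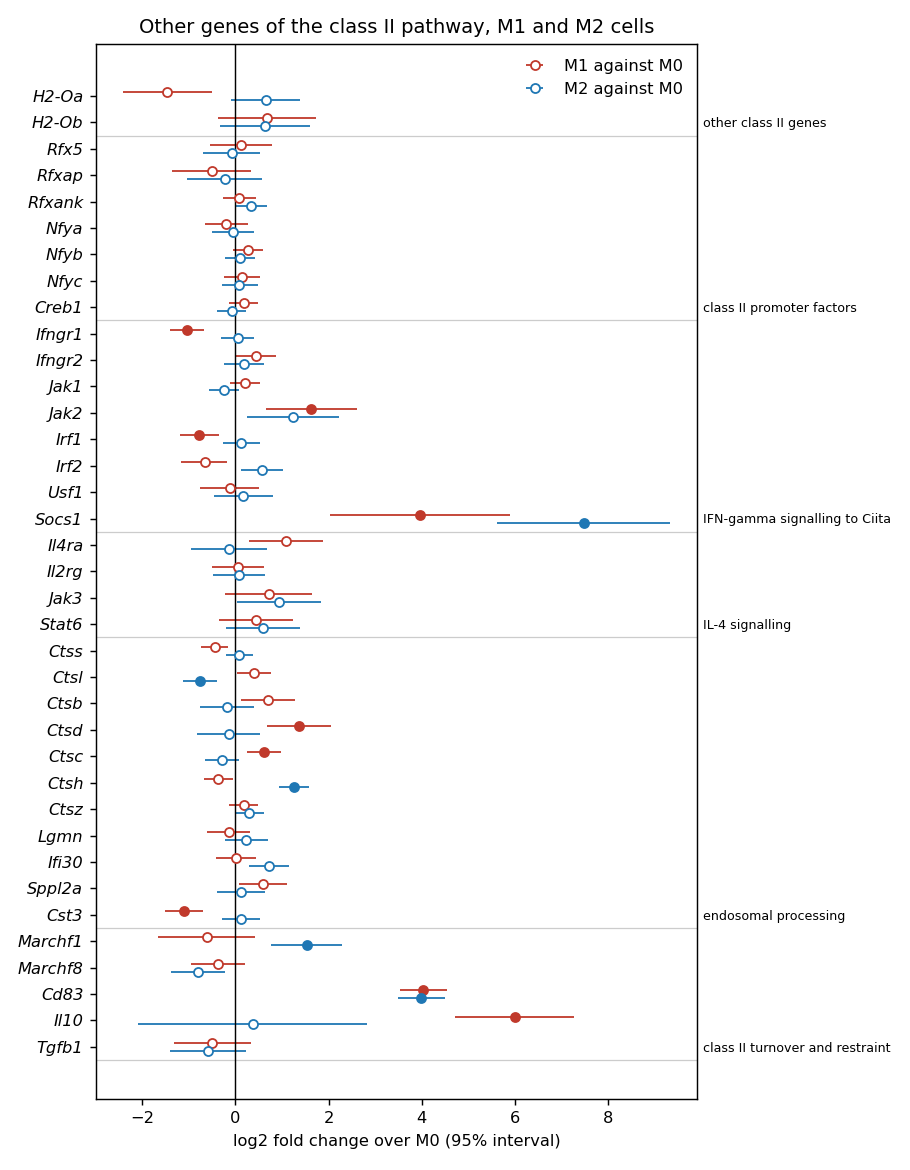
Log2 fold change over M0 (horizontal axis, with 95% intervals) of the reported tested genes of 6 pathway lists, named at the right edge, in M1 and in M2 cells. Filled points passed both thresholds: in M1 they are Ifngr1, Jak2, Irf1, Socs1, Ctsd, Ctsc, Cst3, Cd83 and Il10, and in M2 Socs1, Ctsl, Ctsh, Marchf1 and Cd83.

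In the microrod groups no gene of these 6 lists was called against M0 by edgeR, but several genes had unadjusted p-values below 0.05. After CaP exposure these were 5 of the 11 endosomal genes, 4 of the 4 tested turnover genes, 1 of the 7 promoter factors and 1 of the 4 IL-4 signalling genes. Such p-values were common, with 2985 of all 16621 genes tested. DESeq2, which called 3.9% of all genes here, called 3 endosomal genes: Ctsd (log2 fold change 1.27, adjusted p = 0.111 by edgeR and 0.00879 by DESeq2), Ctsh (-0.71, 0.103 and 0.00861) and Cst3 (-0.57, 0.111 and 0.0246). Without CaP replicate 1, edgeR called Ctsd, Ctsb, Cst3 and Stat6 in CaP against M0, where it called 743 of 16639 genes. Without M0 replicate 2 it called Tgfb1, where it called 342 of 17441 genes. After SiO2 exposure 4 endosomal genes and 1 of the 4 turnover genes had an unadjusted p below 0.05, as did 1540 of all 16621 genes. DESeq2, which called 0.776% of all genes here, called Ctsd (log2 fold change 1.21, adjusted p = 0.293 by edgeR and 0.0361 by DESeq2). For the 4 tested members themselves, DESeq2 called none against M0 in either microrod group.

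Across the 15 libraries, the mean scaled level of the 4 tested members ranged from 1.65 to 1.93 in M2 and from -0.93 to -0.16 elsewhere. The 5 genes whose log2 CPM followed this mean most closely over the 15 libraries were Eif2b2 (r = 0.972), a subunit of a translation initiation factor, Tigit (0.966), an inhibitory receptor known from lymphocytes, Aqp1 (0.964), a water channel, Lipn (0.964), a lipase, and Hemk1 (0.96), a methyltransferase, of 15107 genes with a symbol. These correlations describe mainly the gap between M2 and the other groups: Eif2b2 had a mean of 210 CPM in M2 and of 72.6 to 89.6 CPM elsewhere, and Aqp1 of 2.51 CPM in M2 and of at most 0.0741 CPM elsewhere. After the group mean was taken from each library, the closest genes were others, led by Cd37 (0.963) and Slc35f6 (0.961), and the members correlated with each other between -0.26 and 0.32. No test was made of these values.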

How the data were processed

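Polyadenylated RNA of 15 samples was sequenced with the Smart-seq2 protocol and paired 75-base reads. The authors processed the reads with nf-core/rnaseq (STAR and Salmon) against the mouse genome GRCm39 (the build in the submitters' processing notes) with Ensembl annotation, and deposited whole-number gene counts, 1 column per library. The protocol does not mark strand, so overlapping genes cannot be told apart, and PCR reads without molecular identifiers are not independent molecules. Depth ranged from 8459643 to 68750050 counts per library, and limits for counts of 0 cover counting error only.

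Counts were tested with edgeR 4.0.16 (glmQLFit with legacy = FALSE, glmQLFTest, TMM, filterByExpr by group, R 4.3.3), with all 15 libraries in 1 model for comparisons with M1 or M2 and the 9 M0, CaP and SiO2 libraries in another for the rest. DESeq2 1.42.0, other scalings, filters, thresholds and libraries left out were alternatives. The steps were tested on simulated data with 200 changed genes, drawn at random from the genes tested. For M2 against M0, edgeR called 15% of 2-fold and 69% of 4-fold changes, and DESeq2 27% and 79%. For CaP against M0 these were 7% and 64% with edgeR, and 29% and 81% with DESeq2. Of the calls for CaP against M0, 8.974% were false with edgeR and 25.68% with DESeq2, and for M2 against M0 9.677% and 23.19%. Levels per kilobase used the median length of GENCODE protein-coding transcripts, and promoters came from RefSeq, both on GRCm38, so no coordinate of the counts was used. Named genes were all 8 members, the pathway genes called against M0 (at most 4 per list and comparison by fold) and the 5 genes most like the members. Irf1, Ctss and genes called only by DESeq2 or without a library were added after their values were seen. Members and lists were chosen with earlier results of these data known. Some genes of the pathway and marker lists are not reported here.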

Additional observations from a re-analysis of the deposited data

How the results depend on the processing

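Of 255 recomputed counts of called members, 250 stayed within 1.5 times the reported count, and no called value changed sign. In M1 against M0 the count was 1 (H2-DMa) in place of 0 with DESeq2 and under the filter that asks each library for 10 counts, and ranged from 0 to 1 when 1 library was left out. With only the 6 libraries compared, 2 of 4 members were called in M2 against M0 and 1 of 4 (H2-DMa) in CaP against M2, and the number of all genes called in M2 against M0 was 98 in place of 687. That number was 1141 without the filter, 429 after thinning to the smallest library, 316 without M0 replicate 1, 434 without M0 replicate 3, 409 without M2 replicate 1, 1361 without M2 replicate 2 and 366 without M2 replicate 3. Over all genes the count of called genes ranged from 7 to 743 in CaP against M0 (68 as reported, 743 without CaP replicate 1), from 0 to 129 in SiO2 against M0 (10 as reported, 129 with DESeq2) and from 1 to 16 between the materials (4 as reported, 16 with DESeq2). It was 1511 to 1516 without M1 replicate 3 or 2 in M1 against M0 (2342), 1377 with 6 libraries, 1764 without M2 replicate 3, 4270 without M2 replicate 2 and 4407 without the filter in M1 against M2 (2679), 1350 without CaP replicate 3 and 3882 without the filter in CaP against M1 (2108), 1114 to 1117 without SiO2 replicate 3 or 1 in SiO2 against M1 (1741), 252 to 488 with 6 libraries, thinning or the stricter filter in CaP against M2 (742), and 269 to 384 with 6 libraries or without M2 replicate 3, SiO2 replicate 1 or 3 in SiO2 against M2 (608). H2-DMb1 in SiO2 against M2 was called in 17 of 26 alternatives and in CaP against M2 in 20 of 26.

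The replicate numbers were not treated as pairs. Same-numbered libraries of different groups correlated between -0.704 and 0.604 in their deviations from the group means. With 3 libraries a group, and no comparison with differently numbered libraries, these values cannot decide whether the samples were paired. With the replicate number as a block, 4 members were called in M2 against M0, in M1 against M2 and in both rod groups against M2, and 0 in the other comparisons, while all genes called fell to 28 in CaP against M0, 1 in SiO2 against M0 and 1 between the materials. The legacy quasi-likelihood test, chosen after seeing the data, changed no count of members. With all genes kept, edgeR called H2-Aa, H2-Ab1 and H2-Eb1 in no comparison, and Ciita only between M2 and each of M0, CaP and SiO2. At this depth the other comparisons of these genes cannot tell equal levels from different ones.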
